A study of Mus musculus with 2 samples.

Results

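The 10 genes described here encode transcription factors of fat cell formation other than the C/EBP family: Pparg, Rxra, Ebf1, Ebf2, Klf4, Klf15, Srebf1, Egr2, Gata2 and Gata3. They were chosen by name as regulators of adipogenesis, by a rule that uses no measured value although earlier results of these data were known, and are 10 of the 21951 protein-coding genes of GENCODE M21 on the mouse genome build GRCm38. TET2, an enzyme that oxidises methylated cytosine, was mapped by chromatin immunoprecipitation sequencing (ChIP-seq). The cells were adipocytes that had been made in vitro from adipose-derived stem cells (ASCs) of the inguinal fat pad of mice, and 1 TET2 immunoprecipitate and 1 input were sequenced. The induction cocktail held IBMX, dexamethasone and insulin, and insulin alone followed. The labels give no strain, genotype, sex or age for this culture. The study's methods speak of male mice and of C57BL/6J stock in general, without tying the culture to an age or genotype. No second condition was sequenced, and the cells were a differentiated culture rather than adipocytes taken from fat. With 1 library there is no replicate error, so the values below are descriptions of that library and carry no test. Read totals per library are not in the peak list, and the study gives its sequencing yield only as a volume of data, so the reads behind a peak are unknown and a gene without a listed peak is not shown to be free of TET2.

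The differentiation of a preadipocyte runs as a relay of transcription factors. Klf4 and Egr2 (also called Krox20) act among the earliest inducible factors, upstream of the C/EBP proteins. PPARγ, the nuclear receptor encoded by Pparg, is the factor the later program depends on, and it binds DNA as a heterodimer with the retinoid X receptor RXRα, encoded by Rxra. EBF1 and EBF2 prepare adipose chromatin for PPARγ, KLF15 and SREBP-1 act in lipid and glucose handling of the maturing cell, and GATA2 and GATA3 hold preadipocytes undifferentiated. TET2 oxidises 5-methylcytosine at CpG sites and lacks a DNA-binding domain of its own, which is why the CpG content of these loci is described along with the peaks.

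A TET2 peak lay within 1 kb of an annotated transcription start site (TSS), judged by its midpoint, at 4 of the 10 genes: Rxra, Ebf2, Srebf1 and Gata3. Over all protein-coding genes that share was 24.6%. It rose with the number of annotated starts, to 29.5% of genes with 4 to 6 and 37.9% of those with 7 or more. Of the 10 genes, 7 had 4 to 6 starts and 2 had 7 or more, and a promoter peak was at 3 and 1 of these. A peak midpoint lay inside the gene body of 5 of the 10 (the same 4 and Klf4), beside 32.1% of all protein-coding genes. No test was made of these counts, and nothing particular to the 10 genes is read from them. Pparg, Ebf1, Klf15, Egr2 and Gata2 had neither kind of peak. The values below therefore separate 5 genes with 7 peaks between them from 5 genes with none.

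**Figure D1:**
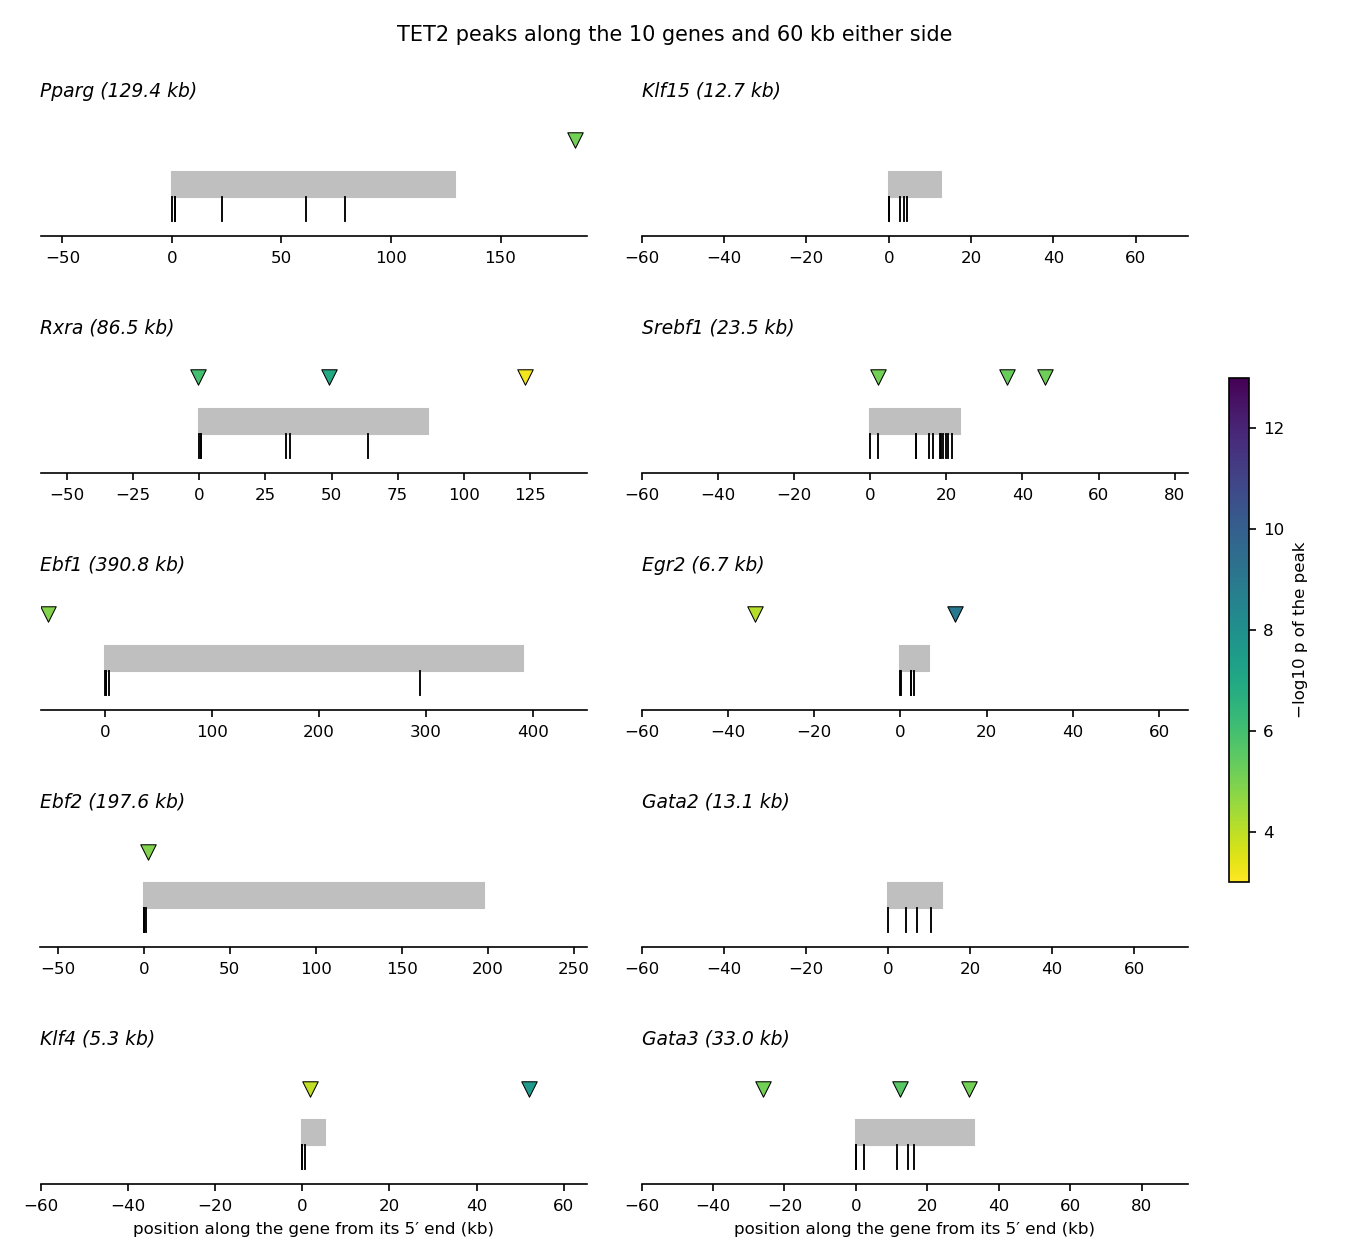
Map of each gene (grey bar, drawn 5′ to 3′ from left to right, in kb from its 5′ end) with its annotated TSSs (black ticks under the bar) and all TET2 peaks in the gene and the 60 kb on either side (triangles, coloured by the −log10 p of the peak). Triangles stand over or beside the bars of Rxra, Ebf2, Klf4, Srebf1 and Gata3, while the Pparg, Ebf1, Klf15, Egr2 and Gata2 bars have none above them, and the panels of Klf15 and Gata2 have none at all.

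The sequences that carry these differences are printed 5′ to 3′ on the strand of each gene, with every CpG in capitals. The first set holds 1 peak from each of 5 genes, the one nearest to a start, as its central stretch free of annotated UTR (at most 300 bases), read from GRCm38. The set shows how much the DNA under these 5 peaks differed in CpG content, with 7 CpG in the 300 bases upstream of Rxra and 29 in those of Srebf1. The other 2 peaks, in an Rxra intron and the last Gata3 exon, held 5 and 13 CpG in stretches of 300 bases and are not printed. Only 64 bases of the Gata3 peak are shown, from the start codon onward, since the rest is 5′ UTR.
Rxra, chr2:27675872-27676171, plus strand, upstream of the gene: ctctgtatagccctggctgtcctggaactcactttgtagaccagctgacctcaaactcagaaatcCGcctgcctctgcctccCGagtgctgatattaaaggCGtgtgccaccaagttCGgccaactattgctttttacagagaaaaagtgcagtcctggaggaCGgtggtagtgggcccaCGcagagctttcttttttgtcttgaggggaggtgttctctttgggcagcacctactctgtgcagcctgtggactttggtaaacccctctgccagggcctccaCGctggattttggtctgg
Ebf2, chr14:67235430-67235729, plus strand: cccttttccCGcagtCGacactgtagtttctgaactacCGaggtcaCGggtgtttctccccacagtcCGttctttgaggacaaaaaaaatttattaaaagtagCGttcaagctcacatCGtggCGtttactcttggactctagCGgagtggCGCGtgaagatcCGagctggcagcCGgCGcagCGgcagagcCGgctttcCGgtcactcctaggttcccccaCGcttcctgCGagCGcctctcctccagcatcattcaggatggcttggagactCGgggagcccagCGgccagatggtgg
Srebf1, chr11:60220243-60220542, minus strand, end of the first coding exon and start of the first intron: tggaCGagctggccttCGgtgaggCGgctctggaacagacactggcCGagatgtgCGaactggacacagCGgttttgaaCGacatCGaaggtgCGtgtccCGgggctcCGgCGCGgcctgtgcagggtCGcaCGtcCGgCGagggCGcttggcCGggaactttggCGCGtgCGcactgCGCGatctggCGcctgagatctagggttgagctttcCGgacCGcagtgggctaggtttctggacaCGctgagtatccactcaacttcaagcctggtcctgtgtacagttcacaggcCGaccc
Klf4, chr4:55530409-55530708, minus strand, coding sequence: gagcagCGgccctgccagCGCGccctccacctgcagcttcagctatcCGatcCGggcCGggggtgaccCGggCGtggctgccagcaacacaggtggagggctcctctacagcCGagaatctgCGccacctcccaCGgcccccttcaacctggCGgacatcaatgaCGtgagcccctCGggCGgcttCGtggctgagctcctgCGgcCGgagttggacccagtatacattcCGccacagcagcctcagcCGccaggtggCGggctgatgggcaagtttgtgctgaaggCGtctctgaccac
Gata3, chr2:9877421-9877484, minus strand, start of the coding sequence: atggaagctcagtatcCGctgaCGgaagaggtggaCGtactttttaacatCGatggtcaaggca

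The second set holds promoters that had no peak midpoint within 1 kb of the TSS they precede. Promoters without such a midpoint ranged from one with hardly any CpG (Pparg-201, the PPARγ2 promoter) to ones packed with it (Klf15, and the main Rxra promoter). For Rxra this rests on the 1 kb limit: a peak midpoint lay 1179 bp upstream of this start. The nearest to the Klf15 start was 92698 bp upstream. Each stretch is the 250 bases before the TSS in the RefSeq promoters of GRCm38.
Pparg-201, chr6:115421816-115422065, plus strand: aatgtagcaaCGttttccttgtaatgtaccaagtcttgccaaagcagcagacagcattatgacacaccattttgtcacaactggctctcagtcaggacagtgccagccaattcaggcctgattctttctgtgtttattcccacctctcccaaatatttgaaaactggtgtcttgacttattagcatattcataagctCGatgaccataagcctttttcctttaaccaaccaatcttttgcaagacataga
Klf15, chr6:90462326-90462575, plus strand: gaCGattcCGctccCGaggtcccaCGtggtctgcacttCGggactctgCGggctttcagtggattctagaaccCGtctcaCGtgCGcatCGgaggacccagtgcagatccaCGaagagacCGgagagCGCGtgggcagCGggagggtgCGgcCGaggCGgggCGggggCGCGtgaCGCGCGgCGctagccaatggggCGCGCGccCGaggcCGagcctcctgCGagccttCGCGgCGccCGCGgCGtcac
Rxra, chr2:27676951-27677200, plus strand: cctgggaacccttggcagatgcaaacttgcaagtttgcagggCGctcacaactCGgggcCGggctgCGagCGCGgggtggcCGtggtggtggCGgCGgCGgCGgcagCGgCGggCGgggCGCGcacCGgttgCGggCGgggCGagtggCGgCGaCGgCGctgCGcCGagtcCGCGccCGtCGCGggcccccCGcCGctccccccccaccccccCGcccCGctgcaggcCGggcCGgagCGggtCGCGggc

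Pparg had no TET2 peak at any of its promoters or in its body. The gene (ENSMUSG00000000440, chr6:115360951-115490399, 129449 bp) has 7 annotated transcripts, whose starts fall into 5 promoters when starts within 500 bp of each other are joined. Alternative promoters of Pparg make 2 proteins: PPARγ1, found in many tissues, and PPARγ2, which has an additional N-terminal stretch and is largely a product of fat cells. Pparg-202 and Pparg-204 encode the 475 amino acid form from the upstream promoters. Pparg-201 encodes the 505 amino acid form from a promoter 61115 bp downstream of the first TSS. Each of the 5 promoters had 0 peaks within 1 kb and 0 within 50 kb.

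The nearest peak upstream of Pparg was 272709 bp before the gene. The nearest downstream was centred 54406 bp past its end, with a −log10 p of 5.13. Pparg thus sat in an interval of 456563 bp between peak midpoints. The downstream peak was 183854 bp from the Pparg-202 start, 122739 bp from the Pparg-201 start and 104830 bp from the closest start of the gene, that of the retained-intron transcript Pparg-205. A nearest peak farther away than that was seen for 18.5% of protein-coding genes, so Pparg was in the sparse part of the distribution and not at its edge.

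The Pparg promoters differed from each other in sequence although they were alike in having no peak. The CpG ratio, observed CpG over that expected from the C and G content, was 0.91 in the 300 bases around the Pparg-202 start, with 27 CpG and a GC content of 63.0%. It was 0.57 at Pparg-204 and 0.29 at Pparg-207. At the PPARγ2 start of Pparg-201 it was 0.17, with 2 CpG and a GC content of 40.3%. Both CpG of that window are the capitals in the Pparg-201 stretch printed above.

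RXRα, the partner with which PPARγ binds DNA, was encoded at the locus with the peak of largest −log10 p among the 10 genes. Rxra (ENSMUSG00000015846, chr2:27676440-27762957) had 2 peaks. The peak at chr2:27675755-27676288 lay outside the gene, 418 bp upstream of the start of Rxra-204, with a −log10 p of 6.01. It counted as a promoter peak only through that transcript: it was 1179 bp upstream of the start of Rxra-201 and 1240 bp upstream of that of Rxra-206. Those latter starts lie in CpG-dense DNA, with CpG ratios of 1.08 and 1.19 and 55 and 61 CpG in 300 bases. The peak itself had a CpG ratio of 0.33, and 39.3% of its bases were repeat-masked in the reference. So the peak stood beside the CpG-rich Rxra promoter and its midpoint did not fall in it.

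The other Rxra peak, chr2:27725238-27725612, was intronic, 48224 bp downstream of the Rxra-201 start. Its −log10 p of 6.98 was the largest of the 7 peaks and ranked 5528 of 14103 in the list. It was the poorest in CpG of the 7, with a ratio of 0.16 and 6 CpG in 375 bp. Over all nuclear peaks the median CpG ratio was 0.51, so both Rxra peaks were below it.

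Among the early inducers, Klf4 had a peak and Egr2 had none. Klf4 (ENSMUSG00000003032, chr4:55527143-55532466, minus strand) is a gene of 5324 bp, and its peak, chr4:55530371-55530745, lay in coding exon 3 of 5 of Klf4-201, 1908 bp downstream of that start. The nearest start was that of Klf4-202, 1212 bp away, just outside the 1 kb limit. Its −log10 p of 3.96 was the lowest of the 7 peaks and was exceeded by 98.1% of the list, so this was among the weakest peaks deposited. The CpG ratio of the peak was 0.70, with 29 CpG.

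Egr2 (ENSMUSG00000037868, chr10:67535475-67542188) had its nearest peak 9404 bp downstream of its last start and 5899 bp past the end of the gene. This peak, chr10:67547721-67548453, had a −log10 p of 8.95 and lay in Ado, 868 bp from the start of that gene, which encodes cysteamine dioxygenase. A peak stronger than all 7 at the member loci thus lay next to Egr2 but at its neighbour. The highest CpG ratio among the 6 Egr2 starts was 0.80, at Egr2-205.

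The EBF factors also divided. Ebf2, a marker and regulator of brown and beige adipocyte precursors, had 1 peak, and Ebf1, a broader adipogenic factor known first from B cells, had none. The Ebf2 peak (gene ENSMUSG00000022053, chr14:67233292-67430918; peak chr14:67235364-67235794) lay 935 bp downstream of the start of Ebf2-202, with a −log10 p of 4.91. Measured from the other starts it was 1976 to 2287 bp downstream. Its midpoint lay in no exon of a protein-coding Ebf2 transcript, and in exon 2 of 2 of the retained-intron transcript Ebf2-204. With 32 CpG in 431 bp and a CpG ratio of 0.80 it was one of the CpG-rich peaks. Its −log10 p was exceeded by 85.2% of the list. At a −log10 p of at least 5 Ebf2, like Ebf1, had no peak, so the division rests on this weak peak.

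Ebf1 (ENSMUSG00000057098, chr11:44617317-45008091) is the longest of the 10 genes at 390775 bp, and no peak midpoint fell anywhere in it. Its nearest peak, with a −log10 p of 4.86, was 52939 bp upstream, in Rnf145, a ubiquitin ligase gene. The next peak downstream was 574915 bp past the end of the gene. The interval between those peaks was 1018628 bp, and the gene with 500 kb on either side held 1.44 peaks per Mb, beside 5.61 over the autosomes. The Ebf2 neighbourhood was nearly as sparse at 1.67 per Mb, so a peak inside Ebf2 did not go with a peak-rich surrounding. Among protein-coding genes over 100 kb, 65.0% had a peak in the body, and of the 3 in that class here (Pparg, Ebf1, Ebf2) 1 did.

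**Figure D2:**
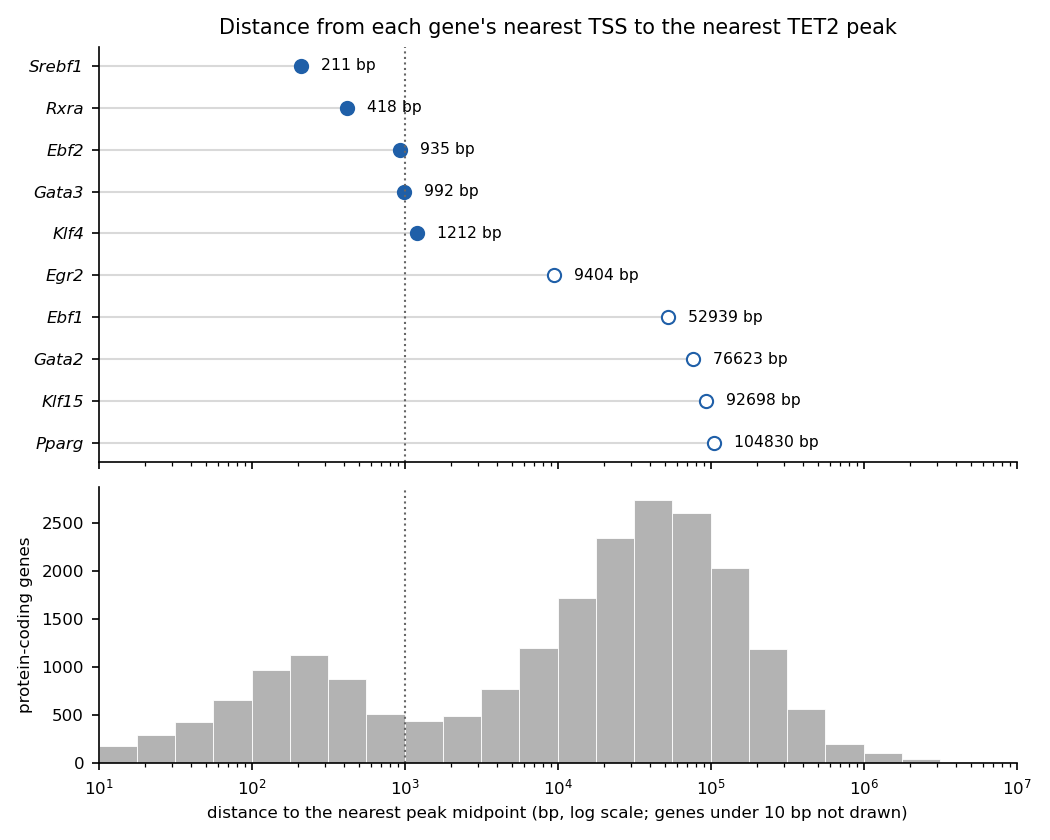
Distance in bp (log scale) from the nearest TSS of each gene to the midpoint of its nearest TET2 peak (upper panel; filled, a peak at a TSS or in the body; open, neither), above the number of protein-coding genes in each bin of the same distance (lower panel). The dotted line marks 1 kb: Srebf1, Rxra, Ebf2 and Gata3 are inside it at 211 to 992 bp, Klf4 just outside at 1212 bp, and Ebf1, Gata2, Klf15 and Pparg are at 52939 to 104830 bp.

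Of the factors of the maturing cell, Srebf1 had a peak directly over a promoter and Klf15 had none. Srebf1 (ENSMUSG00000020538, chr11:60199089-60222581, minus strand) makes SREBP-1a and SREBP-1c from separate promoters, of which 1c is the main form in fat and liver and the one that insulin induces. The peak, chr11:60220094-60220691, covered the start of Srebf1-201, the SREBP-1a transcript with its own first coding exon, and its midpoint was 211 bp downstream of that start. It was 9927 bp upstream of the start of Srebf1-207, the SREBP-1c transcript, where no peak was listed within 1 kb. This was the closest of the 7 peaks to a TSS and the longest at 598 bp, with 46 CpG and a CpG ratio of 0.84. Its −log10 p was 5.13, a value shared by 1497 peaks of the list. The 1a and 1c starts had CpG ratios of 0.54 and 0.98 in the window that ends 50 bases after the TSS. In that window the start without a peak was the one with more CpG. The peak midpoint, 211 bp downstream of the 1a start, lay outside it. With 500 bases either side of the TSS the ratios were 0.60 and 0.67, so most of this difference depended on the window.

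Klf15 (ENSMUSG00000030087, chr6:90462576-90475238), a factor of the late stage that promotes glucose uptake and gluconeogenic gene programs, had the highest promoter CpG ratio of the 10 genes. The CpG ratio was 1.21 at Klf15-203 and 1.18 at Klf15-201, with 56 and 47 CpG in 300 bases. Its nearest peak was 92698 bp upstream, 259 bp from a start of Zxdc, a zinc finger gene. That peak, chr6:90369291-90370464, had a −log10 p of 12.10. The interval between the peaks flanking Klf15 was 291506 bp.

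The GATA repressors divided as well. Gata3 (ENSMUSG00000015619, chr2:9857078-9890034, minus strand) had 2 peaks. The first, chr2:9877421-9877795, lay in exon 2 of 6 of Gata3-201, over the end of the 5′ UTR and the start codon. It was 992 bp downstream of the Gata3-201 start, just inside the 1 kb limit, and 352 bp from the start of the antisense gene Gm13256, so it cannot be assigned to 1 of the 2 promoters. Its −log10 p was 5.59 and its CpG ratio of 0.89 was the highest of the 7 peaks. The other, chr2:9858320-9858694, lay over the coding part of the last exon, 20093 bp from the Gata3-201 start, with a −log10 p of 5.13 and a CpG ratio of 0.59. The 2 peaks were thus at opposite ends of the coding sequence.

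Gata2 (ENSMUSG00000015053, chr6:88193891-88207032) had no peak within its 13142 bp. The nearest was 76623 bp upstream, at chr6:88117081-88117455, with a −log10 p of 6.04, and the nearest downstream was 90661 bp past the gene. The surrounding DNA was not poor in peaks: the gene with 500 kb on either side held 11.8 per Mb, about as many as around Srebf1 (12.7). The CpG ratio of the Gata2-202 start was 0.90.

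The 7 peaks were modest by the caller's measure. Their −log10 p ranged from 3.96 to 6.98 with a median of 5.13, and 6 of the 7 were below the median of the list, 6.21. The median of the 5824 peaks within 1 kb of any TSS was 6.90. Of the 7, 4 had the shortest length in the list, 375 bp, as did 32.0% of all peaks. None reached a −log10 p of 10, which 8.66% of all peaks did. Of the peaks nearest to the empty genes, those in Ado (8.95, by Egr2) and at Zxdc (12.10, by Klf15) were larger than every peak at the 10 genes. Those nearest to Ebf1 (4.86), Pparg (5.13) and Gata2 (6.04) were not.

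**Figure D3:**
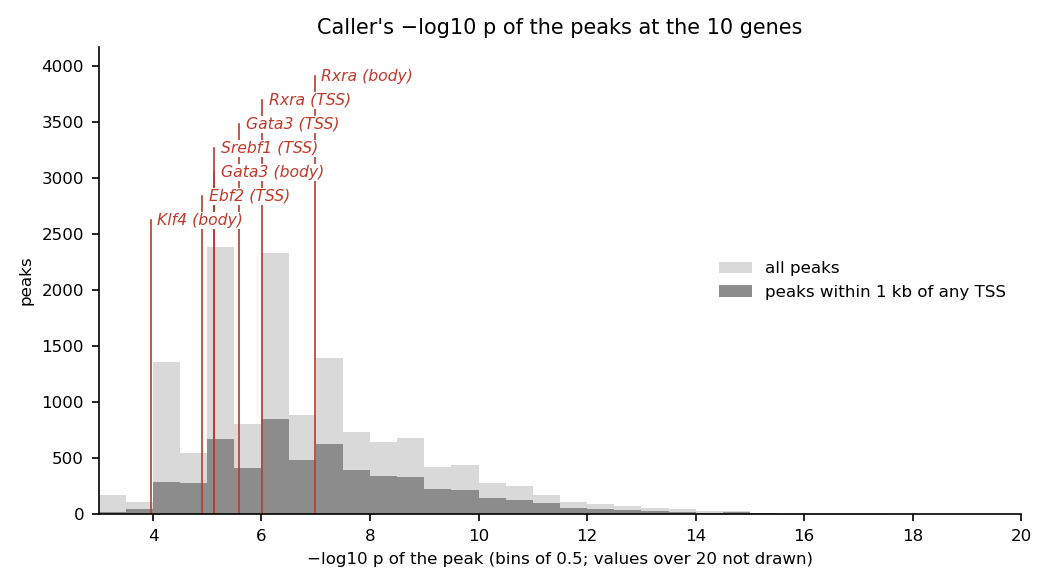
Number of peaks in bins of −log10 p (light grey, all 14103 peaks; dark grey, those within 1 kb of any TSS), with a red line at the value of each of the 7 peaks at the 10 genes (TSS, midpoint within 1 kb of a start of the gene; body, elsewhere in the gene). The lines lie between 3.96 and 6.98, and 6 of them are left of the list median of 6.21.

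The CpG content of a promoter went with peaks over the genome. When protein-coding genes were divided by the highest CpG ratio among their starts, 5.61% had a promoter peak below a ratio of 0.50, 27.7% from 0.50 to 0.75 and 39.1% from 0.75 up. The top class held 9 of the 10 genes, so these classes could not separate them. Beside the 39.1% of that class, 3 of those 9 had a promoter peak. Gata3, at 0.66, was alone in the middle class and had one. The genes with the highest ratios, Klf15 (1.21) and Rxra (1.19), were 1 without and 1 with a promoter peak, and the Rxra peak was not at its CpG-rich starts. Among the starts with a midpoint within 1 kb the ratios were 0.54 (Srebf1-201), 0.64 (Rxra-204), 0.66 (Gata3-201) and 0.82 (Ebf2-202), whereas the starts over 0.90, in Rxra, Klf4, Klf15, Srebf1, Ebf1 and Pparg, had none.

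**Figure D4:**
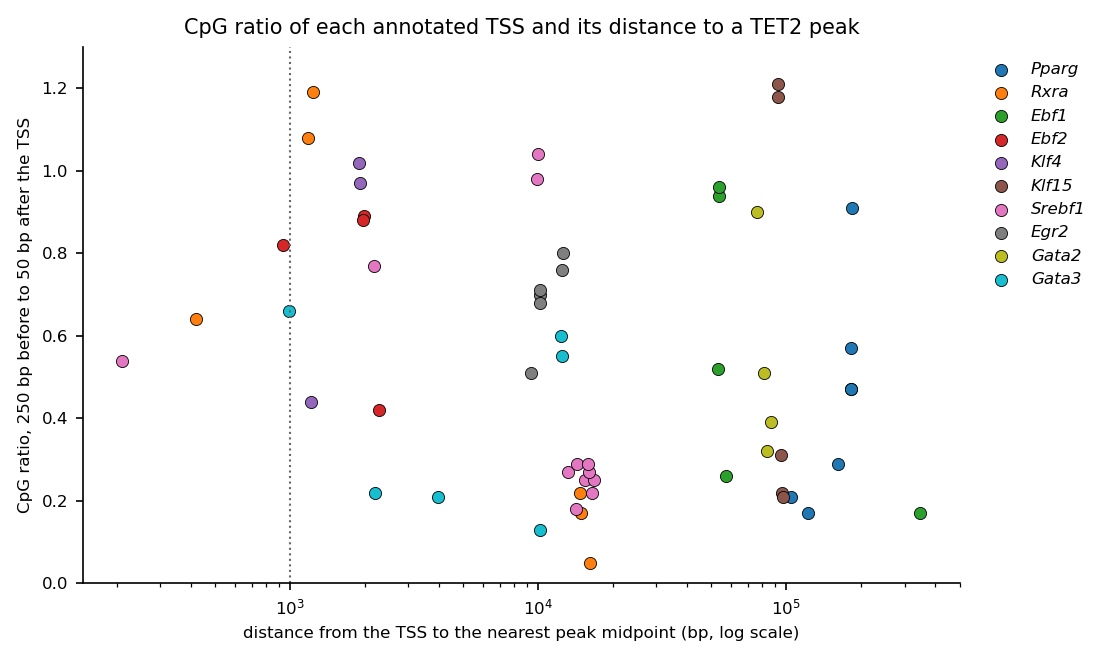
CpG ratio in the 300 bases around each annotated TSS of the 10 genes against the distance in bp (log scale) from that TSS to the nearest peak midpoint, with 1 point for each start position, coloured by gene. The dotted line marks 1 kb: the 4 points to its left have ratios of 0.54 to 0.82. Points at or over 0.90 lie to its right, those of Rxra and Klf4 near it at 1179 to 1908 bp.

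Gene length went with peaks in the body over the genome. The share of protein-coding genes with a peak in the body rose over length classes from 16.8% under 10 kb through 29.9% and 42.1% to 65.0% over 100 kb. Of the 10 genes, 1 of 2 (Klf4, Egr2), 1 of 3 (Srebf1 of Klf15, Srebf1 and Gata2), 2 of 2 (Rxra, Gata3) and 1 of 3 (Ebf2) had one in these classes.

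**Figure D5:**
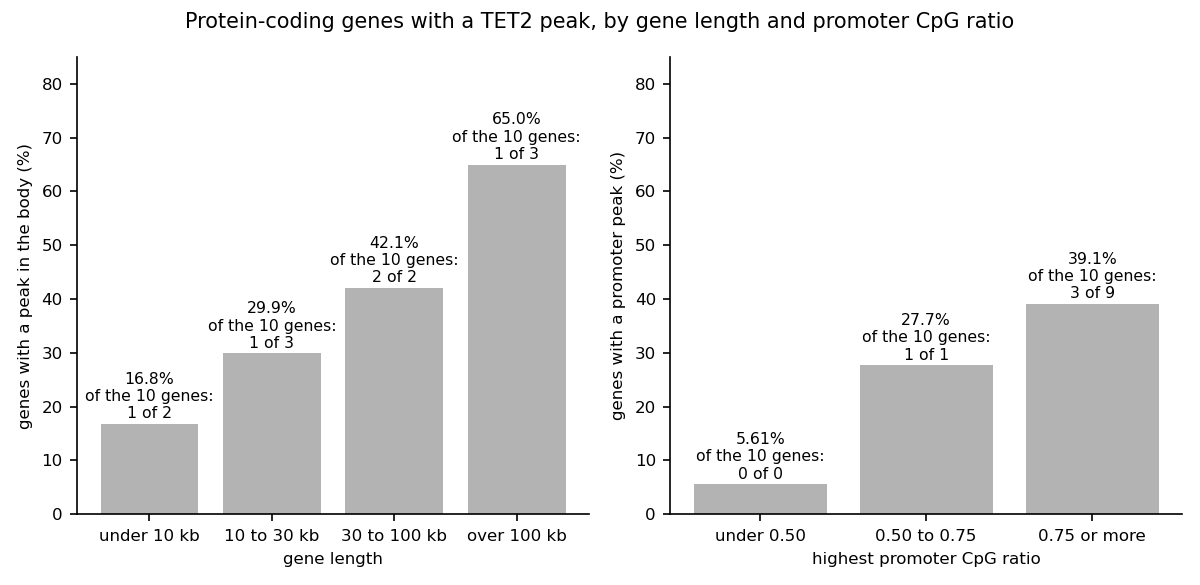
Share in percent of all protein-coding genes with a TET2 peak in the body by gene length (left) and at a promoter by the highest CpG ratio of their starts (right), with the count of the 10 genes over each bar. The bars rise from 16.8% to 65.0% with length and from 5.61% to 39.1% with CpG ratio. The 10 genes give 1 to 2 of 2 or 3 in each length class and 3 of 9 in the highest CpG class.

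Short motifs of the factors concerned were counted on both strands in the 20 RefSeq promoters matched to 9 of the genes (300 bases each, of which some overlap) and in the central 300 bases of the 7 peaks. The SP motif GGGCGG was in 12 of the 20 promoters, beside 35.7% of all 32851 promoters, and in 2 of the 7 peaks (Klf4 and the last-exon peak of Gata3), beside 33.7% of all peaks. The C/EBP motif TTGCNNAA was in 1 of the 20 promoters, that of PPARγ2, where it occurred 2 times, with leftmost bases 215 and 16 bp before the Pparg-201 start. All promoters held it in 10.8% of cases, and none of the 7 peaks did (6.64% of all peaks). The EBF motif CCCNNGGG was in 4 of the 20 promoters (13.7% of all), among them both of Gata2, and in the Klf4 peak (18.0% of all peaks). No match in these promoters or peaks was found for the motif AGATAA of GATA2 and GATA3 (11.2% of all promoters), GCGTGGGCG of the EGR family (0.612%), TCACNCCAC of the SREBP family (1.24%), CCACACCC of the KLF family (3.56%) or AGGTCANAGGTCA, the direct repeat that PPARγ and RXRα read (0.0396%). A match shows that the letters are present and no more.

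Relatives of the 10 factors gave a promoter share close to that of all genes and a body share above it. Of 29 other genes of the PPAR, RXR, EBF, KLF, SREBP, EGR and GATA families, 8 had a promoter peak (27.6%, beside 24.6%): Ebf3, Ebf4, Klf9, Klf14, Klf16, Srebf2, Gata4 and Gata5. A peak lay in the body of 14 of the 29 (48.3%, beside 32.1%). That comparison was not matched for gene length, with which the body share of all protein-coding genes rose from 16.8% to 65.0%. Ebf3 and Ebf4 had a promoter peak where Ebf1 had none. The nearest peak midpoints lay between 313 bp upstream (Klf16, −log10 p 9.22) and 670 bp downstream (Ebf3, 5.13) of a start. Srebf2, which encodes the SREBP of cholesterol synthesis, had 5 peaks in its body, and its promoter peak was 170 bp upstream of a start with a −log10 p of 4.15. Of the nuclear receptor genes in the list, Ppara, Ppard, Rxrb and Rxrg, none had a promoter peak, and Ppard had 3 peaks in its body.

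Genes of the partners, cofactors and processing proteins of these factors had promoter peaks at 14 of 29 (48.3%, beside 24.6% of all protein-coding genes) and body peaks at 17 of 29 (58.6%, beside 32.1%). Of the C/EBP genes among them, Cebpd had a peak 337 bp downstream of its start (−log10 p 9.66), and Cebpa and Cebpb had none. The preadipocyte commitment factor Zfp423 had one at 210 bp downstream (4.73), and Prdm16, which drives brown and beige identity, had 2 promoter peaks and 9 in its body, the nearest with a −log10 p of 10.87. The corepressor gene Ncor1 had one 107 bp downstream, and the coactivator genes Ncoa2, Ncoa3 and Ppargc1b at 87 bp upstream and 325 and 845 bp downstream of a start. Zfpm1 and Zfpm2, whose FOG proteins bind GATA factors, had promoter peaks 480 bp upstream and 191 bp downstream. Of the proteins that hold or cut SREBP, Insig1 had one 373 bp upstream (10.32) and Mbtps2 one 225 bp downstream (11.46). Stat5a (187 bp downstream) and Nr1h3, the oxysterol receptor LXRα (68 bp upstream), also had one. This list was assembled with earlier results of these data known and was not matched for gene length, so its shares are not evidence on cofactors as a class.

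Target genes of PPARγ and SREBP gave 2 promoter peaks among 16 (12.5%, beside 24.6% of all protein-coding genes), at Plin4, a lipid droplet protein gene (11 bp upstream, −log10 p 6.47), and Acaca, the acetyl-CoA carboxylase of fatty acid synthesis (326 bp downstream, 10.13). Body peaks were at 5 of the 16 (31.2%, beside 32.1%). Fabp4, Adipoq, Plin1, Cidec and Lpl, which mark adipocytes, had no promoter peak, and their nearest peaks were 15763 to 81838 bp away. Among genes that mark cell types in fat, a promoter peak, found at 24.6% of all protein-coding genes, was at 1 of 6 adipocyte genes (Lep, −log10 p 11.23), 3 of 4 preadipocyte and stromal genes (Pdgfra, Dlk1, Cd34), 0 of 2 macrophage genes and 0 of 2 endothelial genes. A peak is not expression, so these do not check the labelled cell type, and no expression from this culture was analysed here.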

How the data were processed

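One TET2 ChIP-seq library and its input came from passage 3 ASCs differentiated in vitro, and the groups were taken from the sample titles. Per the submitters' processing notes, reads were handled with bcl2fastq and Bowtie and peaks were called with MACS2 2.1.0 on mm10. The study's methods add the removal of poor reads and adapters and name GRCm39 for alignment. They do not say whether peaks were called against the input. The p setting they give for the caller equals a −log10 p of 5, which 11921 of the deposited peaks reached and those of Ebf2 and Klf4 did not. The deposited list holds 14103 peaks, each with an interval and the −log10 p given by the authors' caller. That value was used only to describe and rank peaks, and no p-value was computed. The list carries neither read totals nor summits, so midpoints were used.

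Peaks were placed on GRCm38 with GENCODE M21, taking starts as 1-based. No coordinates were converted. A promoter peak had its midpoint within 1 kb of any TSS of the gene, and a body peak had it inside the gene. The CpG ratio was taken from 250 bases before to 50 after each TSS. Sequences came from GRCm38.p6 and the RefSeq promoters of that assembly, matched by symbol for 9 of the 10 genes. Python 3.11.15, numpy 2.4.6, pysam 0.24.0, samtools 1.23.1 and matplotlib 3.10.9 were used, and the counting steps were tested on simulated data.

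The 10 genes, the family, partner, target and marker lists and the motifs were chosen with earlier results of these data known. All 10 genes are named, as are the listed genes with a promoter peak, except for items not reported here. Neighbours named as holding a gene's nearest peak, and listed genes named as lacking a peak, were picked after their values were seen. Alternatives were other windows and TSS sets, peak edges, thresholds on −log10 p and a longer CpG window.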

Additional observations from a re-analysis of the deposited data

How the results depend on the processing

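The count of genes with a promoter peak fell from 4 to 2 (Rxra, Srebf1) with a window of 500 bp and to 0 at a −log10 p of at least 10. It was 5 with windows of 2 kb and 3 kb, which added Klf4, 3 at a −log10 p of at least 5, and 4 with any base of the peak, protein-coding transcripts or RefSeq TSSs, the last an alternative added after seeing the data. Over all protein-coding genes the share moved from 24.6% to 21.6%, 26.9% and 28.5% with windows of 500 bp, 2 kb and 3 kb, 25.3% by any base, 23.1% with protein-coding transcripts and also with RefSeq TSSs, and 22.1% and 2.71% at a −log10 p of at least 5 and 10. Genes with a body peak went from 5 to 3 without peaks within 1 kb of a TSS (3 peaks in place of 6; 16.0% of all genes), to 3 at a −log10 p of at least 5 (28.8%) and to 0 at 10 (0 peaks; 3.94%). By any base they were 5 (34.2%). Shares were called moved when outside the exact 95% binomial interval of the first value, and counts and distances when they changed over 1.5 times. Of the distances of the 10 genes and 5 Pparg promoters, 14 of 15 moved at a −log10 p of at least 10, with Klf15 the exception, and 2 of 15 moved by nearest edge (Rxra, Srebf1). A CpG window of 500 bases either side moved 1 of 10 highest ratios, that of Srebf1.

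No paired analysis was possible because there was 1 TET2 library. Reads per library are not known from the list, so the absence of a peak at Pparg, Ebf1, Klf15, Egr2 or Gata2 is the absence of a call in this list. No library was left out, since there was 1.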

Other observations

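The density of peaks around the 10 genes spread widely. Counted over each gene with 500 kb on either side, it was lowest at Ebf1 (1.44 peaks per Mb) and Ebf2 (1.67), intermediate at Klf4 (3.98), Gata3 (4.84), Rxra (7.36) and Pparg (7.97), and highest at Klf15 (8.89), Egr2 (8.94), Gata2 (11.8) and Srebf1 (12.7), beside 5.61 over the autosomes. Genes with and without a peak of their own were found at both ends of this order. Of the 5 genes without one, 4 (Pparg, Klf15, Egr2, Gata2) lay in surroundings above the autosomal density.

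RefSeq annotates enhancers near only 1 of the 10 genes, Gata2, whose distal elements are known from blood cells. None of the 4 enhancers within 50 kb of Gata2 was overlapped by a peak, and the nearest peak edge was 72367 to 85726 bp from their centres.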
